A study of Homo sapiens with 6 samples.

Results

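A set of 10 genes that define plasma cells and the surface of myeloma cells was followed in MM1.S cells: the transcription factors and cofactor IRF4, PRDM1, IKZF1, IKZF3, MAF and POU2AF1, and the surface proteins SDC1, TNFRSF17, CD38 and SLAMF7. They were named as a group for their known roles, with earlier results of these data known. All 10 are among the 11048 genes listed in each library. MM1.S, a line grown from human multiple myeloma, is one in which an immunoglobulin heavy-chain translocation drives MAF. The cells were treated for 6 h with the vehicle DMSO, with 3 µM CCF642 or with 3 µM CCF642-34, an analogue of CCF642. The authors had reported CCF642 earlier as an inhibitor of protein disulfide isomerase. The study developed CCF642-34 from it as an inhibitor of the protein disulfide isomerase PDIA1. Poly(A) RNA of 2 libraries per group was sequenced, and the question put to these genes was how their mRNA differed between each compound and the vehicle, and between the compounds. The results come from 1 cell line at 1 dose and 1 time, and the labels do not say whether the 2 libraries of a group came from separate cultures, so p-values measure the spread between libraries, which may be technical.

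A B cell becomes a plasma cell when PRDM1 and IRF4 shut down B cell genes and open the program for antibody secretion, and myeloma cells remain dependent on several of these factors. Lenalidomide and related drugs act in myeloma by bringing IKZF1 and IKZF3 to cereblon, the substrate receptor of a ubiquitin ligase, for degradation. SDC1, TNFRSF17, CD38 and SLAMF7 lie on the surface of plasma cells, where the last 3 are bound by antibodies or engineered T cells used to treat myeloma.

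The libraries held between 20567313 and 28459677 reads, as recovered from the deposited values. In the CCF642-34 tables the smallest listed values were taken as 5 and 3 reads, since every value then came out whole, and the read numbers of that group rest on this step. The values below are deposited CPM, the reads of a gene scaled to a common library total. Behind each member stood between 565 reads, for CD38, and 38660 reads, for IRF4. All 10 markers of plasma cells written for this check were listed, with a summed level of 9905 to 10003 CPM with DMSO, 7020 to 7054 CPM with CCF642 and 7866 to 7911 CPM with CCF642-34. Of these, SDC1, TNFRSF17, CD38, SLAMF7, PRDM1, IRF4 and POU2AF1 are members, so for them the check could not fail. Only XBP1, MZB1 and JCHAIN are not members. JCHAIN made up the largest part of the sum, with means of 4318, 1833 and 2348 CPM in the same order of groups. Of the markers of other cells, 1 of 6 for B cells (CR2, 24.8 to 31.8 CPM), 1 of 8 for T and NK cells (CD3E, 2.09 to 3.19 CPM), 0 of 8 for myeloid cells and 4 of 8 for erythroid and stromal cells were listed. The last 4 were HBB, COL1A1, PECAM1 and EPCAM. Their sum was 7.66 to 8.08 CPM with DMSO, 15.2 to 16.3 CPM with CCF642 and 10.8 to 11.6 CPM with CCF642-34. With CCF642 only COL1A1 was called higher (limma, adjusted p under 0.05), by 2.33 on the log2 scale. With CCF642-34, COL1A1 (0.90) and HBB (0.64) were called higher. PECAM1 and EPCAM were called with neither compound, and the mean of PECAM1 was lower with both. The part of this shift of the sum in the results was not tested. MS4A1 and PAX5, which help define B cells, were not among the listed genes.

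Each compound lowered SDC1, TNFRSF17 and MAF most among the 10 genes and raised IRF4 most. CCF642 raised 3 members and lowered 6 (limma, adjusted p under 0.05), against 31.8% of all genes higher and 31.3% lower. CCF642-34 raised 2 members and lowered 7, against 29.7% and 27.9% of all genes. The criterion of the study, a 2-fold change with p under 0.05, was applied to the limma fit used here. The shares of genes are therefore not those of the study's own analysis. By this criterion SDC1, MAF and TNFRSF17 were lower with CCF642, where 1.99% of all genes were lower and 4.5% higher. With CCF642-34, SDC1 and MAF were lower and IRF4 was higher by this criterion, and 1.29% of all genes were lower and 2.59% higher. The median log2 fold change of the 10 genes was −0.29 with CCF642 and −0.32 with CCF642-34, and that of all genes was −0.0066 and 0.0067. Their median absolute log2 fold change was 0.42 with either compound, where all genes had 0.29 with CCF642 and 0.25 with CCF642-34. The 10 genes were chosen with earlier results of these data known. Their counts and medians therefore cannot serve as a test against all genes. Both comparisons use the same DMSO libraries, so they are not independent of each other. In RNA from whole cultures, fewer cells of a kind and less RNA per cell cannot be told apart. Fold changes are on the scale of log2(CPM + 1) after TMM scaling, which divides each library by a factor for its composition, so they differ somewhat from the ratio of the deposited CPM. Where libraries are said to overlap or lie apart, deposited CPM are compared. The share of all genes whose libraries lie apart was not counted.

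**Figure D1:**
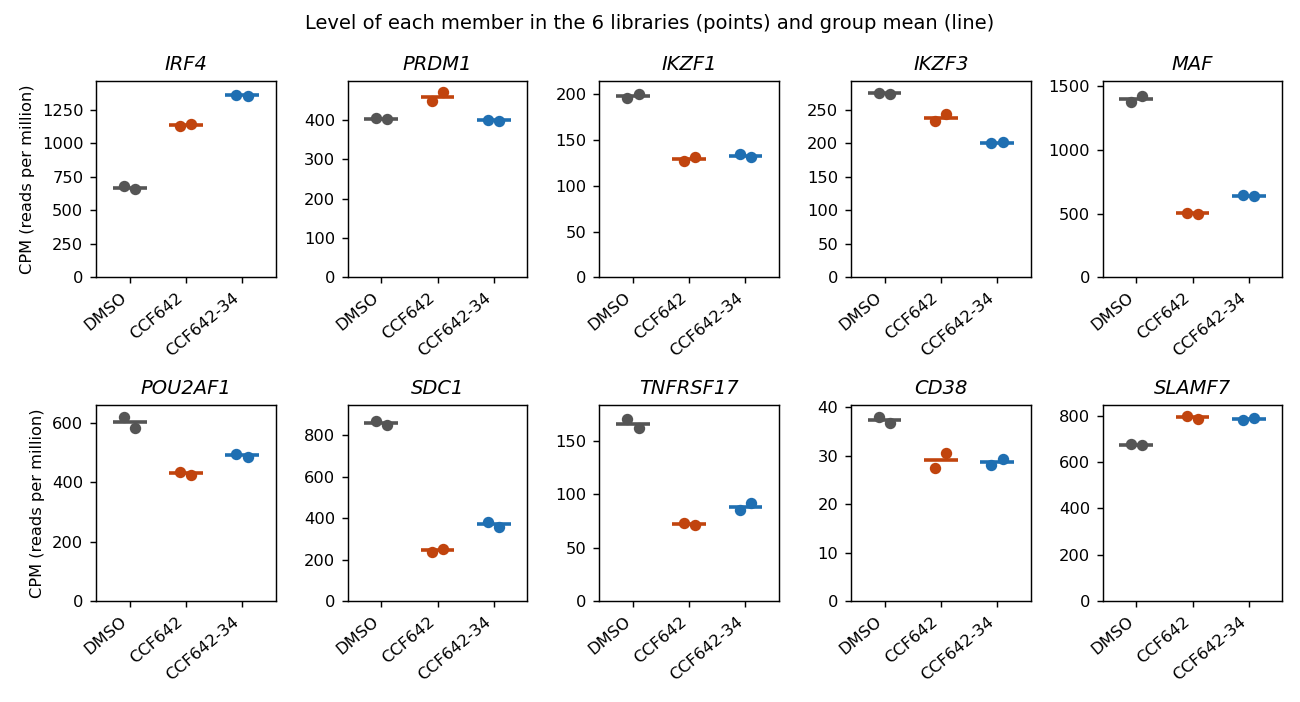
Level of each of the 10 genes in CPM (vertical axes, starting at 0) in the 6 libraries, shown as points, with the mean of each group as a line. In deposited CPM, before TMM scaling, the libraries of both compounds lie below both DMSO libraries for SDC1, TNFRSF17, MAF, IKZF1, IKZF3, POU2AF1 and CD38. They lie above them for IRF4 and SLAMF7. The share of all genes that lie apart in this way was not counted. After TMM scaling, IKZF3 with CCF642 was not called (limma adjusted p = 0.162).

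IRF4, the transcription factor that plasma cells and myeloma cells depend on, had 682 and 657 CPM with DMSO, 1127 and 1147 CPM with CCF642, and 1358 and 1355 CPM with CCF642-34. The 3 groups did not overlap, and the CCF642-34 libraries were highest. The rise was 1.86-fold with CCF642 (log2 fold change 0.90, SE 0.035, limma adjusted p = 8.11e-27) and 2.16-fold with CCF642-34 (1.11, SE 0.035, limma adjusted p = 2.38e-30). IRF4 lies at chr6:391739-411447 on the plus strand of GRCh38 (GENCODE annotation). It is shown first among the promoters because it was the member that rose most. The 250 bases before its RefSeq start (GRCh38.p14, chr6:391502-391751, plus strand) are printed 5′ to 3′, with the matches to searched motifs in capitals:
IRF4 promoter: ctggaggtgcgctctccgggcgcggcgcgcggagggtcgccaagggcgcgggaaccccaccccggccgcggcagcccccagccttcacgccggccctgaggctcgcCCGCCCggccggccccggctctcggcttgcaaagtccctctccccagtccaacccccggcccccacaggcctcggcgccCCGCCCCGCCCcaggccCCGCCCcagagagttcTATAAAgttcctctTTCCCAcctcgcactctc
The capitals mark, from left to right, 4 GC boxes read on the opposite strand (GGGCGG, at 144, 65, 60 and 48 bases before the start, of which the middle pair share 1 base), a TATA box (TATAAA, 32 bases before the start) and an Ikaros core on the opposite strand (TGGGAA, 18 bases before the start). Of 35116 RefSeq promoter windows of 300 bases, 45% hold a GC box, 11.5% a TATA box and 24% an Ikaros core on either strand. The window of IRF4 had a GC content of 74%, and the median of all windows was 58.7%.

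MAF, a leucine zipper factor that acts as an oncogene in part of myelomas, had the highest CPM of the 10 genes with DMSO. It had 1379 and 1421 CPM with DMSO, 509 and 501 CPM with CCF642, and 647 and 637 CPM with CCF642-34. Both compounds left MAF well under the DMSO libraries, lowest with CCF642 and with no overlap between the 3 groups. MAF fell 2.52-fold with CCF642 (log2 fold change −1.34, SE 0.036, limma adjusted p = 1.49e-33) and 2.05-fold with CCF642-34 (−1.03, SE 0.036, limma adjusted p = 1.06e-28). The gene lies at chr16:79585843-79600714 on the minus strand of GRCh38. Its promoter is shown because MAF was one of the members that fell at least 2-fold with both compounds (GRCh38.p14, chr16:79600738-79600987, minus strand, printed 5′ to 3′ along the gene):
MAF promoter: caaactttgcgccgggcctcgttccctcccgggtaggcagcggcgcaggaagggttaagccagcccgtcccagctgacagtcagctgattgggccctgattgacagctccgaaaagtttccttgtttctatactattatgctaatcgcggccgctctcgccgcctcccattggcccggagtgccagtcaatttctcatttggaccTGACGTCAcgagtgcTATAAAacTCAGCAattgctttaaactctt
The capitals mark a cAMP response element (TGACGTCA, 45 bases before the start), a TATA box (TATAAA, 30 bases before it) and a MAF half-site on the opposite strand (TGCTGA, 22 bases before it). These motifs occur in 1.85%, 11.5% and 17.3% of all windows. The GC content of the MAF window was 51.7%.

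PRDM1, which encodes the repressor Blimp-1, moved little. Its levels were 404 and 402 CPM with DMSO, 447 and 471 CPM with CCF642, and 399 and 398 CPM with CCF642-34. Only the CCF642 libraries were above DMSO, while those with CCF642-34 were slightly under DMSO in deposited CPM. PRDM1 rose by 1.25-fold with CCF642 (log2 fold change 0.32, limma adjusted p = 1.44e-09). With CCF642-34 the log2 fold change was 0.073 (95% interval −0.0069 to 0.15, limma adjusted p = 0.113). Scaling by library size alone put it at −0.017. PRDM1 lies at chr6:106086320-106109939 on the plus strand of GRCh38 and overlaps ATG5 on the opposite strand. The strand setting of the counting is not given in the sources used here, so reads from the shared stretch cannot be assigned to either gene with certainty.

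IKZF1 and IKZF3, which encode the zinc finger factors Ikaros and Aiolos, did not move alike. IKZF1 had 197 and 201 CPM with DMSO, 127 and 132 CPM with CCF642, and 135 and 132 CPM with CCF642-34. IKZF3 had 276 and 274 CPM with DMSO, 233 and 245 CPM with CCF642, and 200.1 and 203 CPM with CCF642-34. The libraries of the compounds overlapped for IKZF1 and lay apart for IKZF3, where those of CCF642-34 were lower. IKZF1 fell by 0.48 on the log2 scale with each compound (SE 0.048, limma adjusted p = 3.59e-12 with CCF642 and 4.28e-12 with CCF642-34). IKZF3 fell by 0.36 with CCF642-34 (SE 0.044, limma adjusted p = 1.19e-09). With CCF642, the log2 fold change of IKZF3 was −0.070 (95% interval −0.16 to 0.018, limma adjusted p = 0.162), and this call depended on the fit. IKZF3 was lower with CCF642 when scaled to library size alone (−0.20, limma adjusted p = 6.78e-05) and without CCF642 replicate 2 (−0.11, limma adjusted p = 0.0414). The level of IKZF3 divided by that of IKZF1 in CPM was 1.40 and 1.37 with DMSO, 1.83 and 1.85 with CCF642, and 1.49 and 1.54 with CCF642-34. These ratios are not corrected for transcript length, and per kilobase of the longest transcript IKZF3 stood below IKZF1 with DMSO (28.1 against 31.5 CPM). IKZF1 lies at chr7:50304068-50405101 on the plus strand and IKZF3 at chr17:39757715-39864188 on the minus strand of GRCh38.

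POU2AF1, a B cell coactivator that binds the octamer factors OCT1 and OCT2, had 619 and 583 CPM with DMSO, 435 and 425 CPM with CCF642, and 495 and 485 CPM with CCF642-34. All libraries of both compounds lay under DMSO, and those of CCF642 were lowest. POU2AF1 fell by 0.35 on the log2 scale with CCF642 (SE 0.039, limma adjusted p = 1.02e-10) and by 0.20 with CCF642-34 (SE 0.039, limma adjusted p = 1.62e-05). The gene lies at chr11:111352252-111455630 on the minus strand of GRCh38.

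SDC1, which encodes syndecan-1 (CD138), the heparan sulfate proteoglycan by which plasma cells are recognised, changed most of the 10 genes. Its levels were 869.8 and 851 CPM with DMSO, 239 and 252 CPM with CCF642, and 383 and 359 CPM with CCF642-34. The 3 groups did not overlap, and CCF642 left the least SDC1 mRNA. The mean of 860.2 ± 13.6 CPM in the vehicle libraries dropped to 245 ± 9.43 CPM under CCF642 and 371 ± 16.8 CPM under CCF642-34 (SD, n = 2). After scaling these were falls of 3.19-fold (log2 fold change −1.67, SE 0.041, limma adjusted p = 2.29e-35) and 2.17-fold (−1.12, SE 0.041, limma adjusted p = 6.01e-28). By the size of the log2 fold change, SDC1 ranked 144 of the 11048 genes with CCF642 and 290 with CCF642-34. SDC1 lies at chr2:20200797-20225433 on the minus strand of GRCh38. RefSeq gives 2 separate promoter windows for it, and the 250 bases before each start are shown because this gene had the largest change (GRCh38.p14, chr2:20225131-20225380 and chr2:20225476-20225725, minus strand, printed 5′ to 3′ along the gene):
SDC1 promoter, start 1: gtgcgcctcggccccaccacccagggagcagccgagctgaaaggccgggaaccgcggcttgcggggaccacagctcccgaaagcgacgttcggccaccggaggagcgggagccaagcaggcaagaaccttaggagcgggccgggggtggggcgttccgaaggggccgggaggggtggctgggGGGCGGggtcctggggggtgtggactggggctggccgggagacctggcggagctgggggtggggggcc
SDC1 promoter, start 2: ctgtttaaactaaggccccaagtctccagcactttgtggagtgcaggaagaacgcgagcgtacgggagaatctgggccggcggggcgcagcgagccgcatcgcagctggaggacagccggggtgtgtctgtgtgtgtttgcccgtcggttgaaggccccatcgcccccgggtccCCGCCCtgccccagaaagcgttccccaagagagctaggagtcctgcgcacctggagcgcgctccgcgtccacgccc
The capitals mark 1 GC box in each, at 68 bases before the first of these starts on the strand of the gene and at 76 bases before the other on the opposite strand. The windows had a GC content of 70.7% and 67.7%. None of the other 9 motifs searched had a match in either window.

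TNFRSF17 encodes BCMA, the receptor on plasma cells for the survival factors APRIL and BAFF. It had 169.8 and 162 CPM with DMSO, 72.7 and 71.2 CPM with CCF642, and 84.9 and 91.7 CPM with CCF642-34. As with SDC1, no groups overlapped and the CCF642 libraries were lowest. TNFRSF17 fell 2.08-fold with CCF642 (log2 fold change −1.06, SE 0.055, limma adjusted p = 2.75e-22) and 1.76-fold with CCF642-34 (−0.81, SE 0.055, limma adjusted p = 9.49e-18). TNFRSF17 lies at chr16:11965107-11968068 on the plus strand of GRCh38 and, like PRDM1, overlaps a gene of the opposite strand (NPIPB2), which was not listed. IKZF1 and POU2AF1 also overlap opposite-strand genes that were not listed.

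CD38, the surface enzyme that breaks down NAD and is bound by daratumumab, was the least abundant of the 10. It had 38.1 and 36.8 CPM with DMSO, 27.5 and 30.7 CPM with CCF642, and 28.2 and 29.3 CPM with CCF642-34. Every compound library was under both DMSO libraries, and the compounds overlapped each other. The log2 fold change of CD38 was −0.23 with CCF642 (SE 0.083, limma adjusted p = 0.0156) and −0.28 with CCF642-34 (SE 0.083, limma adjusted p = 0.00303). Neither call held when the spread was estimated from CD38 alone by a gene-wise linear model (adjusted p = 0.0913 and 0.0671). With CCF642 the call was also lost without DMSO replicate 1 (−0.20, limma adjusted p = 0.112) and without CCF642 replicate 1 (−0.15, limma adjusted p = 0.175). CD38 lies at chr4:15778275-15853230 on the plus strand of GRCh38.

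SLAMF7, a self-binding receptor of the SLAM family and the target of elotuzumab, was the only surface protein of the 4 whose mRNA rose. It had 677 and 672 CPM with DMSO, 800.4 and 787 CPM with CCF642, and 781 and 788 CPM with CCF642-34. The libraries of both compounds were above DMSO and overlapped each other. SLAMF7 rose 1.29-fold with CCF642 (log2 fold change 0.37, SE 0.036, limma adjusted p = 1.68e-12) and 1.24-fold with CCF642-34 (0.31, SE 0.036, limma adjusted p = 3.99e-10). In CPM, SLAMF7 stood at 3.99 and 4.16 times the level of TNFRSF17 with DMSO, at 11.0 and 11.1 times with CCF642, and at 9.21 and 8.60 times with CCF642-34. These ratios are not corrected for transcript length. Per kilobase of the longest transcript, SLAMF7 stood at 251 CPM against 167 CPM for TNFRSF17 with DMSO, and at 295 against 72.4 CPM with CCF642. The gene lies at chr1:160739057-160754821 on the plus strand of GRCh38.

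Ratios within single libraries restate the opposite movement of IRF4 and of MAF and SDC1. These members had large changes in the same libraries, so the ratios add no separate support. The CPM of IRF4 divided by that of MAF was 0.495 and 0.462 with DMSO, 2.22 and 2.29 with CCF642, and 2.10 and 2.13 with CCF642-34. The CPM of IRF4 divided by that of SDC1 was 0.784 and 0.773 with DMSO, 4.72 and 4.55 with CCF642, and 3.55 and 3.77 with CCF642-34. IRF4 was thus below MAF and SDC1 in both vehicle libraries and above them in all 4 compound libraries. The 10 genes together took 5311 and 5260 CPM with DMSO, 4016 and 4061 CPM with CCF642, and 4512 and 4477 CPM with CCF642-34.

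**Figure D2:**
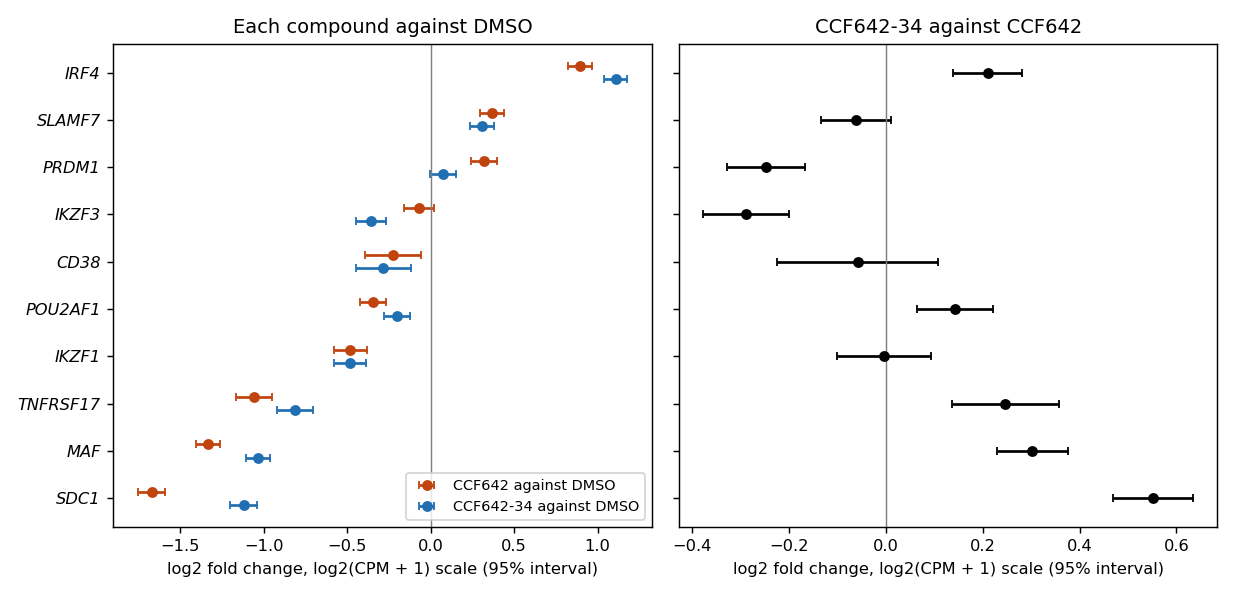
Log2 fold change of each of the 10 genes (log2(CPM + 1) scale after TMM scaling) with its 95% interval, for each compound against DMSO on the left and for CCF642-34 against CCF642 on the right. SDC1 has the largest fall with either compound (−1.67 and −1.12), and in the direct comparison the intervals of IKZF1, CD38 and SLAMF7 include 0.

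CCF642-34 was then compared directly with CCF642, the 1 pair of compounds in the data, at the same dose and time. Relative to CCF642, CCF642-34 left 5 members higher and 2 lower (limma, adjusted p under 0.05), where 15.9% of all genes were higher and 17.4% lower, and no member differed by 2-fold. The number of all genes called higher was 1760, and leaving out CCF642-34 replicate 1 or replicate 2 gave 1044 or 1168. SDC1 differed most, 1.47-fold higher with CCF642-34 (log2 difference 0.55, 95% interval 0.47 to 0.63, limma adjusted p = 2.41e-15). MAF (0.30, limma adjusted p = 3.98e-09), TNFRSF17 (0.25, limma adjusted p = 0.000362) and POU2AF1 (0.14, limma adjusted p = 0.00345) were also higher with CCF642-34, so that the falls of these 4 genes from DMSO were larger with CCF642. IRF4 was higher with CCF642-34 as well (0.21, limma adjusted p = 6.37e-06), on top of the rise with CCF642. PRDM1 (−0.25, limma adjusted p = 2.74e-06) and IKZF3 (−0.29, limma adjusted p = 8.42e-07) were lower with CCF642-34. For 3 genes the libraries of the compounds overlapped and no difference was called. The log2 difference was −0.0027 for IKZF1 (95% interval −0.10 to 0.094, limma adjusted p = 0.974), −0.057 for CD38 (−0.22 to 0.11, limma adjusted p = 0.636) and −0.061 for SLAMF7 (−0.13 to 0.012, limma adjusted p = 0.200). With a gene-wise linear model, 3 of the 7 called differences remained, and IRF4 (adjusted p = 0.0517), PRDM1 (0.0618), TNFRSF17 (0.0976) and POU2AF1 (0.136) lost the call. POU2AF1 also lost it without CCF642-34 replicate 1 (log2 difference 0.12, limma adjusted p = 0.0660).

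Levels of different genes were compared per kilobase of the longest transcript. With DMSO, SDC1 stood first at 261 CPM per kilobase, followed by SLAMF7 (251), MAF (219), POU2AF1 (182), TNFRSF17 (167), IRF4 (126), PRDM1 (78.1), IKZF1 (31.5), IKZF3 (28.1) and CD38 (6.61). No neighbours in this order overlapped between libraries. With CCF642, SLAMF7 (295) and IRF4 (213) led, and SDC1 (74.6) had dropped to place 6, where its libraries overlapped those of TNFRSF17 (72.4). With CCF642-34, SLAMF7 (292) and IRF4 (254) led again, and SDC1 (113) stood at place 4, before MAF (101) and TNFRSF17 (88.8). The order depended on the length used, since MAF stood at place 1 and IKZF3 at place 6 with DMSO when the median transcript length was taken, a choice made after the values were seen.

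**Figure D3:**
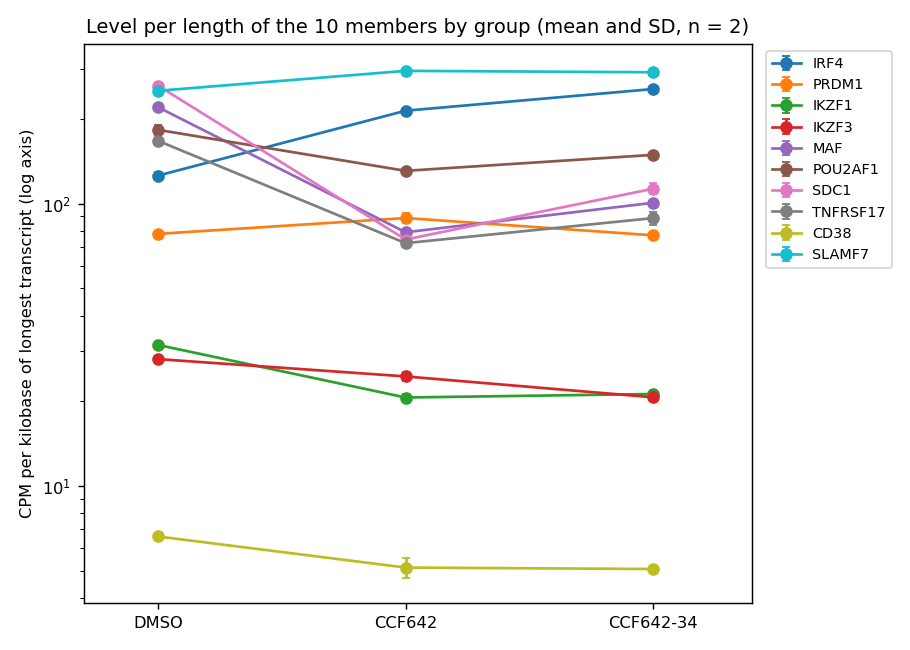
Level of the 10 genes in CPM per kilobase of the longest transcript (vertical log axis) in each group, as the mean with the SD of 2 libraries. SDC1 goes from 261 with DMSO to 74.6 with CCF642 and 113 with CCF642-34, while IRF4 goes from 126 to 213 and 254.

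Genes that work with the 10 members were read from lists of known function. Their counts stand beside the shares of all genes given above (31.8% higher and 31.3% lower with CCF642, 29.7% and 27.9% with CCF642-34). Of 19 listed partners and regulators of the plasma cell factors, CCF642 raised 8 and lowered 5, and CCF642-34 raised 3 and lowered 7. POU2F1, which encodes OCT1, a partner of POU2AF1, fell by 0.56 with CCF642 and by 0.75 with CCF642-34 on the log2 scale. ETS1, a lymphoid transcription factor, fell by 0.74 and 0.75, and KDM1A, a histone demethylase, by 0.57 and 0.49. RUNX3, a Runt family factor, and NFKB1, a subunit of NF-κB, rose with CCF642 by 0.73 and 0.60, and with CCF642-34 by 0.19 and 0.23. The call of RUNX3 with CCF642-34 was lost with library size alone (0.098, limma adjusted p = 0.0685) and with a gene-wise linear model (adjusted p = 0.111). The medians of the list were 0.13 and −0.042. XBP1, the factor that expands the secretory apparatus and a gene picked here after its values were seen, had log2 fold changes of 0.16 with CCF642 (limma adjusted p = 5.48e-05) and 0.037 with CCF642-34 (limma adjusted p = 0.370).

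Genes of the B cell stage, which plasma cells silence, were listed for 9 of 17. With each compound 5 of these 9 were higher than DMSO, and 3 were lower with CCF642 and 2 with CCF642-34, with medians of 0.71 and 0.62. BACH2, a repressor that holds back plasma cell differentiation and opposes PRDM1, had 37.9 ± 2.14 CPM in the vehicle libraries, 83.5 ± 1.71 CPM under CCF642 and 81.0 ± 2.38 CPM under CCF642-34 (SD, n = 2). Its log2 fold changes were 1.25 and 1.17, and those of ID3, an inhibitor of E proteins, were 1.30 and 1.22. CIITA, the master regulator of MHC class II genes and a target of PRDM1, fell by 1.23 and 1.15, and CD24, a surface protein of B cells, fell by 1.68 and 1.55 from a mean of only 2.95 CPM. The list thus held members that moved in both directions, and PAX5, EBF1 and MS4A1 were not among the listed genes.

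**Figure D4:**
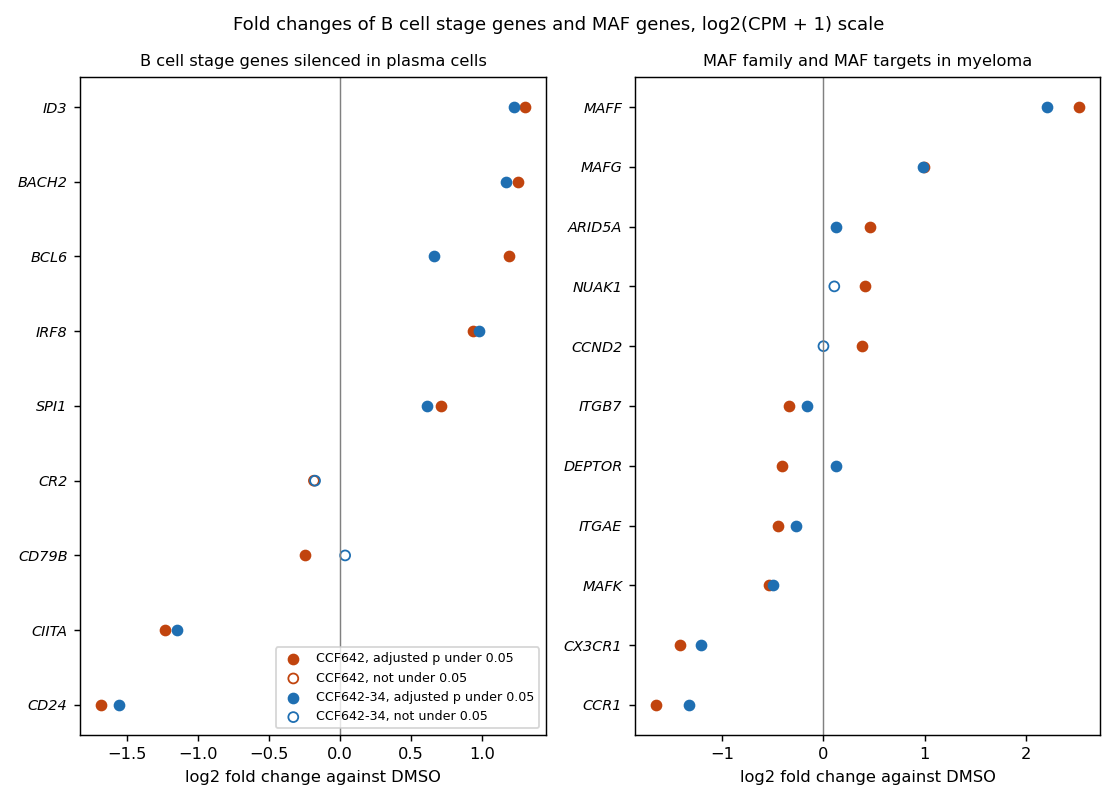
Log2 fold changes against DMSO of B cell stage genes (left) and of MAF family genes and known MAF targets reported here (right), with filled points for a limma adjusted p under 0.05 and open points otherwise. BACH2 and ID3 lie above 1 with both compounds and CIITA and CD24 under −1, and MAFF has the highest value on the right (2.53 and 2.21).

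Of 12 listed genes of the MAF family and of known MAF targets, CCF642 raised 6 and lowered 6, and CCF642-34 raised 4 and lowered 5, with medians of 0.024 and 0.054. The chemokine receptors CCR1 and CX3CR1, the former reported as a MAF target in myeloma, fell by 1.65 and 1.42 with CCF642 and by 1.32 and 1.21 with CCF642-34. CCR1 went from 185 ± 1.53 CPM to 53.0 ± 1.03 CPM and 68.9 ± 1.60 CPM, and CX3CR1 had a mean of only 3.83 CPM with DMSO. The call of CX3CR1 with CCF642-34 was lost with a gene-wise linear model. The other genes listed as MAF targets, named after their values were seen, moved in both directions. With CCF642, CCND2, NUAK1 and ARID5A rose by 0.39, 0.41 and 0.46, while ITGB7, ITGAE and DEPTOR fell by 0.34, 0.45 and 0.41. With CCF642-34, ARID5A and DEPTOR rose by 0.13 and 0.12, ITGB7 and ITGAE fell by 0.16 and 0.27, and CCND2 and NUAK1 were not called. The small MAF proteins, which lack an activation domain, moved in both directions. MAFF rose by 2.53 and 2.21 and MAFG by 0.995 and 0.986, while MAFK, named after its values were seen, fell by 0.54 and 0.50.

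Of 18 listed genes of the other Ikaros family members and of cereblon-dependent degradation, CCF642 raised 6 and lowered 10, and CCF642-34 raised 6 and lowered 8, with medians of −0.18 and −0.10. IKZF2, which encodes Helios, fell by 0.55 with CCF642 and by 0.90 with CCF642-34, from 4.63 CPM, and its call with CCF642 was lost with a gene-wise linear model (adjusted p = 0.0594) and without DMSO replicate 2 (limma adjusted p = 0.0879). CRBN, which encodes cereblon, rose by 0.61 and 0.49 while IKZF1 fell. CSNK1A1, a kinase degraded through cereblon with lenalidomide, rose by 0.72 and 0.67, and SLC16A1, a lactate transporter that depends on cereblon for its maturation, fell by 0.68 and 0.56.

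Other surface targets of myeloma therapy were listed for 25 of 30. CCF642 raised 10 and lowered 11, and CCF642-34 raised 10 and lowered 12, with medians of −0.073 and −0.015. CD55, which protects cells from complement, rose by 2.40 and 1.99, from 32.9 ± 0.356 CPM to 162 ± 2.55 CPM and 125 ± 2.84 CPM. TNFRSF10B, the death receptor DR5, rose by 1.83 and 1.87. CD59, another inhibitor of complement, fell by 0.75 and 0.48, so the complement regulators moved in both directions. GPRC5D, an orphan receptor targeted by bispecific antibodies, fell by 0.63 and 0.57, ITGA4, an integrin chain, by 0.65 and 0.37, and CD86, a costimulatory ligand, by 0.58 and 0.61. The call of ITGA4 with CCF642-34 was lost with a gene-wise linear model (adjusted p = 0.0897).

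Genes close to single surface members were also read. Of 20 listed syndecan, heparan sulfate and shedding genes, CCF642 raised 5 and lowered 12, and CCF642-34 raised 5 and lowered 11, with medians of −0.31 and −0.19. GLCE, XYLT2 and HPSE, which modify, start and cleave heparan sulfate chains, fell with both compounds. Their log2 fold changes were −1.27, −0.91 and −1.22 with CCF642 and −1.34, −1.004 and −0.56 with CCF642-34. HPSE lost the call with CCF642-34 in a gene-wise linear model and without CCF642-34 replicate 1. ADAM17, a protease that sheds surface proteins including syndecans, rose by 1.67 and 1.50, from a mean of 43.2 CPM with DMSO. ADAM10, a related protease of the list named after its values were seen, fell by 0.68 and 0.48, from 316 CPM. Shedding of protein was not measured. EXT1, a heparan sulfate polymerase, rose by 1.06 and 0.70, and SDCBP, the syndecan-binding scaffold, by 0.75 and 0.77. Of 10 listed genes for BCMA shedding, its ligands and its adaptors, CCF642 raised 2 and lowered 3, and CCF642-34 raised 3 and lowered 1, with medians of −0.034 and 0.036. TRAF2, an adaptor of BCMA signaling, fell by 0.22 and 0.49. The call of TRAF2 with CCF642 was lost with a gene-wise linear model, without DMSO replicate 2 and without CCF642 replicate 2.

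Of 12 listed genes that make or use NAD, the substrate of CD38, CCF642 raised 3 and lowered 5, and CCF642-34 raised 2 and lowered 4, with medians of −0.13 and −0.0078. NAMPT, the rate-limiting enzyme of NAD salvage, rose by 1.76 with CCF642 and by 0.90 with CCF642-34, and was lower with CCF642-34 than with CCF642 by a log2 difference of −0.86 (limma adjusted p = 1.03e-23). PARP1, a nuclear consumer of NAD, fell by 0.59 and 0.41. Of 8 listed genes of the SLAM family and its adaptors, CCF642 raised 3 and lowered 3, and CCF642-34 raised 3 and lowered 2, with medians of 0.039 and 0.0070. SLAMF6, a close relative of SLAMF7, fell by 1.14 and 0.76 while SLAMF7 rose. LY9, another SLAM receptor, rose by 0.35 and 0.41, and FYN, a kinase of SLAM signaling, by 0.98 and 1.03.

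The last list was written for antibody secretion, the output of the plasma cell program, and 16 of its 24 genes were listed. The antibody chain genes IGHA1, IGHA2, IGLC1, IGLC2 and IGLC3 were not listed, so antibody output was not measured. The immunoglobulin lambda-like gene IGLL5, named after its values were seen, was listed, with a mean of 13327 CPM with DMSO. It fell by 0.42 with CCF642 and by 0.20 with CCF642-34 on the log2 scale. The list also held genes with other roles, such as PIM2, CCR10 and HERPUD1. CCF642 raised 6 and lowered 8, and CCF642-34 raised 8 and lowered 6, with medians of −0.13 and 0.058. JCHAIN, which joins IgA and IgM chains, fell from 4318 ± 3.32 CPM in the vehicle libraries to 1833 ± 58.8 CPM under CCF642 and 2348 ± 12.7 CPM under CCF642-34 (SD, n = 2), with log2 fold changes of −1.10 and −0.79. PIM2, a survival kinase of myeloma cells, fell by 1.05 and 0.61. HERPUD1, a component of ER-associated degradation, rose by 1.70 and 1.17 and CREB3L2, an ER-bound transcription factor, by 0.80 and 0.80.

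**Figure D5:**
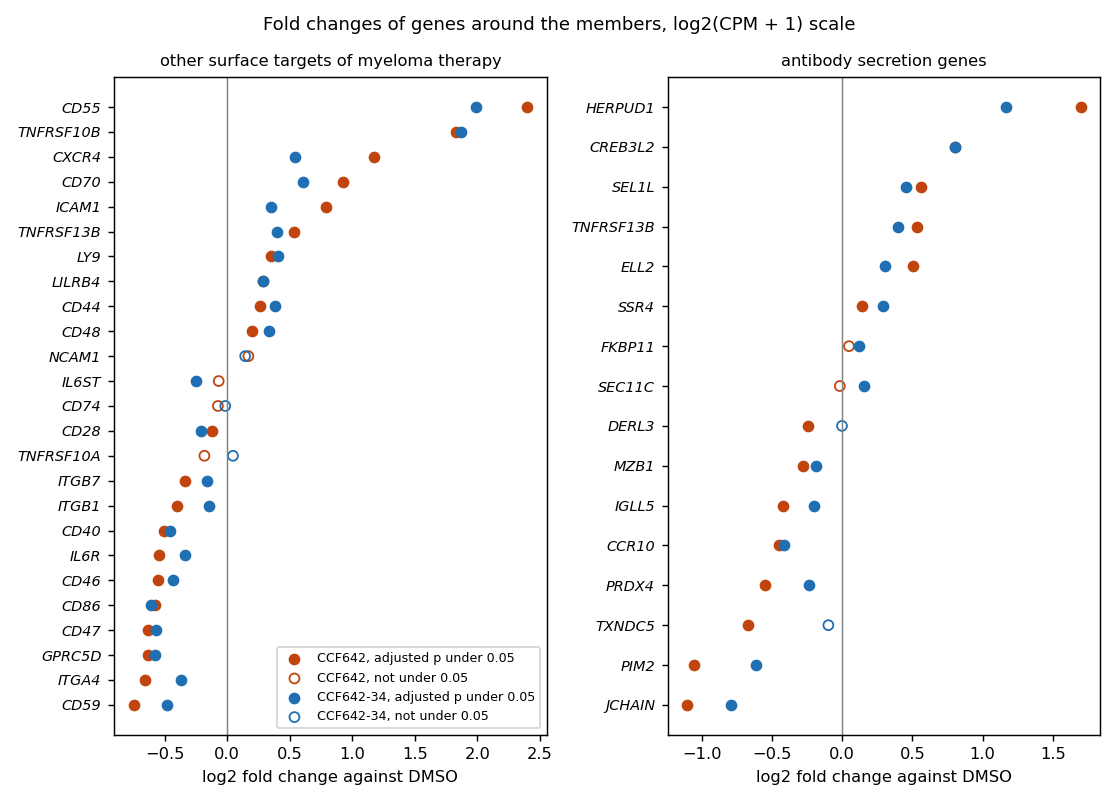
Log2 fold changes against DMSO of other surface targets of myeloma therapy (left) and of antibody secretion genes (right), with filled points for a limma adjusted p under 0.05 and open points otherwise. CD55 and TNFRSF10B have the highest values on the left (2.40 and 1.83 with CCF642) and JCHAIN and PIM2 the lowest on the right (−1.10 and −1.05 with CCF642).

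For the 4 members that changed at least 2-fold, the genes with the most similar pattern were found by the Euclidean distance between centred log2 values over the 6 libraries. Nearest to SDC1 were PLK1 (distance 0.238), TFAP4 (0.245) and TOP2A (0.268). Nearest to MAF were MARS2 (0.129), METTL7A (0.132) and DCK (0.133), and nearest to TNFRSF17 were HMGB3 (0.0813), CCNB1 (0.0990) and GM2A (0.103). Nearest to IRF4 were DGKG (0.0572) and FAM214B (0.0956). Among these 4, IRF4 had the closest neighbours and SDC1 the most distant ones. The distances were not scaled for the size of the change, which was largest for SDC1, so their order does not rank how widely a pattern is shared.

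In the promoter table, 6 of the 10 members had a window, in 10 windows in all (IRF4, PRDM1, IKZF1, MAF, SDC1 and CD38). Besides those printed, the window of CD38 held an IRF element (GAAANNGAA, 17 bases before the start) and an Ikaros core (45 bases before it), motifs found in 8.11% and 24% of all windows. None of the 10 windows held the octamer ATGCAAAT (1.77% of all windows), the E-box CACGTG (7.26%), the unfolded protein response element TGACGTGG (0.729%) or the C/EBP-ATF element TGATGNAAT (0.991%). These matches describe the letters only, and nothing about binding was measured.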

How the data were processed

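Poly(A) RNA of MM1.S cells was sequenced after 6 h in vehicle or in either compound at 3 µM, with 2 libraries per group. The submitters' processing notes name STAR, edgeR (3.24.3), limma (3.38.3) and hg19, with no role or order. The authors deposited CPM for 11048 genes per library, a unit read from the values. The listed genes hold 99.9% of each total, so some genes had been left out. The highest and lowest totals of recovered reads were 28459677 and 20567313, and 100% of values came out whole within 0.01 of a read, but intervals from them cover counting error only. Replicates differed by 2.30, 4.64 and 4.04 times the counting variance with DMSO, CCF642 and CCF642-34.

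CPM were scaled by TMM (edgeR 4.0.16), log2-transformed with a pseudocount of 1 and tested with limma (3.58.1, R 4.3.3, trended variance, two-sided) in 1 fit of 6 libraries. All 11048 genes entered, with Benjamini-Hochberg adjustment over all of them. The prior degrees of freedom were 42.9 and the residual ones 3. An exact permutation test of 2 against 2 libraries cannot go under p = 0.333 and was not used. The scripts were tested on simulated data. The members and gene lists were chosen with earlier results of these data known. Outside the members, the genes named are the 2 largest increases and decreases per list and compound at an adjusted p under 0.05, and the 3 nearest patterns to each member changed 2-fold. Some genes this rule gives are not reported here. Gene positions and lengths are from GENCODE release 29 (GRCh38) and promoters from RefSeq (GRCh38.p14), and no coordinates were converted. A set of 10 motifs was searched on both strands. Alternatives were other scalings, pseudocounts, a CPM minimum of 5, edgeR, DESeq2 (1.42.0) and voom on recovered reads, a gene-wise model, pairs of groups, a replicate block and leaving out each library.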

Additional observations from a re-analysis of the deposited data

How the results depend on the processing

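Over 17 alternative fits, 494 of 510 values of the members kept their direction and their side of the threshold, and the cause of the changes was not tested. Changed calls of the members, and of the genes described in the report, are given there. PTPN6 with CCF642-34 gained a call with library size alone (−0.13, limma adjusted p = 0.0398). With library size alone, the median over all genes shifted to −0.13 with CCF642 on the log2 scale, against −0.0066 with TMM, and 34.8%, 38.6% and 61.8% of the called genes were higher (50.4%, 51.6% and 47.8% with TMM) with CCF642, with CCF642-34 and between the compounds, while the members numbered 3 higher and 7 lower, 2 and 7, and 5 and 2. That scaling turned PRDM1 with CCF642-34 (−0.017), IKZF1 between the compounds (0.041) and, from the lists, PSENEN with CCF642 (−0.099), none of them called. Genes at least 2-fold changed numbered 717 with CCF642 and 470 with a pseudocount of 4. With CCF642-34 they numbered 428, 255 with a pseudocount of 4, 668 with edgeR, 652 with DESeq2 and 670 with voom. The gene-wise model called 4108 genes with CCF642-34 (2172 higher, 1936 lower) in place of 6362, and 739 between the compounds (242 higher, 497 lower) in place of 3685, with 3 members (2 higher, 1 lower) in place of 7. Leaving out 1 library, and taking a lone one to vary like the other groups, gave 1044 to 1659 genes higher with CCF642-34 than with CCF642. Over these fits without 1 library, uncalled values that changed sign ranged from −0.034 to 0.029 for IKZF1 and −0.14 to 0.024 for CD38 between the compounds, and with CCF642-34 from −0.49 to 0.020 for TNFSF13 and −0.098 to 0.019 for PTPN6. Same-numbered replicates did not deviate together (correlations −0.0089, −0.056 and 0.047). This cannot show whether the number pairs samples, since pairs with little shared effect would give such values too, and the labels do not say. A replicate block called the same 9, 9 and 7 members, and 7014, 6422 and 3802 genes in place of 6974, 6362 and 3685. CD38 rests on the fewest reads, 565 to 876 per library.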
